A study of Homo sapiens with 9 samples.

Results

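The 10 genes described here, HSPA5, HYOU1, DNAJB9, DNAJC3, SDF2L1, HSP90B1, CALR, PDIA4, HERPUD1 and XBP1, encode chaperones of the endoplasmic reticulum (ER) and proteins of the unfolded protein response. They were chosen by symbol as a textbook list, with earlier results of these data known, as were the related lists below. Counts of called genes beside shares over all genes are therefore descriptions. All 10 were found among the 60715 genes of the count table. The cells were MDA-MB-231, an established human line from a triple negative breast cancer, infected with lentivirus and enriched by fluorescence sorting. By its label, 1 line carried Kv1.5-T2A-his-EGFP, a voltage-gated potassium channel followed by a green fluorescent protein. Another carried KCNJ2(Kir2.1)-Y242F-EGFP, an inwardly rectifying potassium channel with a substituted residue, joined to the same protein. The control line carried RFP, a red fluorescent protein, and no channel construct. Gene counts of 2 Kv1.5 libraries (replicates 2 and 3), 3 Kir2.1 libraries and 3 RFP libraries were analysed. The series asked how overexpression of either potassium channel changes gene expression in this line.

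Library totals ran from 30970235 to 42753422 counts, and the lowest count of any of the 10 genes was 292, for SDF2L1 in RFP replicate 3. The Kir2.1 libraries held 843, 1384 and 1189 CPM of KCNJ2 (CPM being counts scaled to library size), while Kv1.5 libraries held up to 0.105 CPM and RFP libraries up to 0.0863 CPM. KCNA5, the gene of Kv1.5, was at 0 counts in the Kv1.5 pair and in the 3 RFP libraries, so the count of that gene did not bear out the Kv1.5 label. Kv1.5 below always means the libraries labelled Kv1.5. Genes listed as abundant in MDA-MB-231 (VIM, CD44, AXL, ANXA1, S100A6) summed to 7806 to 9086 CPM in Kv1.5, 10081 to 11956 CPM in Kir2.1 and 8371 to 10182 CPM in RFP libraries. PTPRC, the gene of the pan-leukocyte marker CD45, was at most 0.167 CPM in any library. The myeloid genes CD14 and LYZ were low in every library but higher in both channel groups: CD14 averaged 3.90 CPM in Kv1.5, 3.42 in Kir2.1 and 0.700 in RFP libraries, and LYZ 1.32, 2.03 and 0.166 CPM. They rose in Kv1.5 against RFP by log2 2.48 and 2.97 (adjusted p = 0.000198 and 0.000879) and in Kir2.1 against RFP by 2.29 and 3.59 (adjusted p = 0.000341 and 0.000240). Fibroblast and endothelial markers (COL1A1, COL1A2, DCN, LUM, PDGFRB, PECAM1, CDH5) summed to 9.09 to 12.8 CPM in Kv1.5, 20.01 to 21.5 CPM in Kir2.1 and 192 to 220.0 CPM in RFP libraries, most of the RFP sum being COL1A1. COL1A1 had log2 fold changes of -5.32 in Kv1.5 and -4.63 in Kir2.1 against RFP. Other markers went both ways. LUM rose by log2 2.94 in Kv1.5 and 1.70 in Kir2.1 against RFP (adjusted p = 0.000613 and 0.0205). COL1A2 rose by 2.87 in Kir2.1 against RFP (adjusted p = 0.00506), and PDGFRB had -2.76 in Kv1.5 against RFP (adjusted p = 0.00118). The part of CD14, LYZ and these markers in the results below was not tested.

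The ER folds secreted and membrane proteins with the help of chaperones, chiefly BiP, the product of HSPA5. When unfolded proteins accumulate, the membrane sensors IRE1 (encoded by ERN1), PERK (encoded by EIF2AK3) and ATF6 start the unfolded protein response. IRE1 splices XBP1 mRNA to yield a transcription factor, ATF6 is cut in the Golgi to release another, and both act on promoter sequences known as ER stress elements. PERK phosphorylates eIF2α, which lowers translation in general and raises that of ATF4. Tumour cells with a high load of secreted protein are known to depend on this response.

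The promoters of the 10 genes were searched for these elements, because they are the sequences through which the genes are known to be joined in a single response. RefSeq windows on GRCh38.p14, from 250 bases before to 50 bases after each annotated start, matched all 10 genes by symbol. Both strands were searched for the ER stress element (CCAAT, then 9 bases of any kind, then CCACG), the ER stress element II (ATTGG, then 1 base of any kind, then CCACG) and the unfolded protein response element (TGACGTGG). The ER stress element was in windows of HSPA5, HSP90B1, XBP1 and CALR, with 2 matches in HSP90B1, and in 0.0769% of all 35116 windows. The ER stress element II was in windows of HERPUD1, SDF2L1 and HYOU1, with 2 matches in HYOU1, and in 0.0541% of all windows. The unfolded protein response element was in the HYOU1 window, where it overlapped an ER stress element II match, and in 0.729% of all windows. Either ER stress element was thus present for 7 of the 10 genes and in 0.131% of all windows. The elements were already known from promoters of this response, so these shares are a description and not a test. Among the related lists described below, 4 of 20 other folding genes with a window held one (PDIA6, CANX, ERO1B and CRELD2), and 0 of 8 sensor genes and 0 of 10 integrated stress response outputs did. None of these letters was found in the windows of DNAJB9, DNAJC3 or PDIA4. The stretches below, read 5′ to 3′ on the gene's strand, hold the ER stress element and ER stress element II matches in capitals. An ER stress element on the opposite strand reads as CGTGG before ATTGG, and an ER stress element II as CGTGG before CCAAT.
HSPA5, chr9:125241371-125241429, minus strand: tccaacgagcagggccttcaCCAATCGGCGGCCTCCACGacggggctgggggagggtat
HSP90B1, chr12:103930196-103930359, plus strand: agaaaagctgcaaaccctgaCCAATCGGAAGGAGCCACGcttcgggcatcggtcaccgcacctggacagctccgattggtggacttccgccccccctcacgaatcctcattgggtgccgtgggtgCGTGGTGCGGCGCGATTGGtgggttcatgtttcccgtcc
XBP1, chr22:28800583-28800641, minus strand: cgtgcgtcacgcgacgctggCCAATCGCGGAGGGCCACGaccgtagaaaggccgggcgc
CALR, chr19:12938364-12938422, plus strand: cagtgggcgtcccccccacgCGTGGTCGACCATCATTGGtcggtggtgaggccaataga
HERPUD1, chr16:56932005-56932055, plus strand: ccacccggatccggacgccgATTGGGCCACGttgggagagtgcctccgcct
SDF2L1, chr22:21642094-21642144, plus strand: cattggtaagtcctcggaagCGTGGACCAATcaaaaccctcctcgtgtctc
HYOU1, chr11:119057254-119057410, minus strand: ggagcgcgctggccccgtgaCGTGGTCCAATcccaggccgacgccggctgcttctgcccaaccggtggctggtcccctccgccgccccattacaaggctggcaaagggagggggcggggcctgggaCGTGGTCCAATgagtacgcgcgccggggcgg

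**Figure D1:**
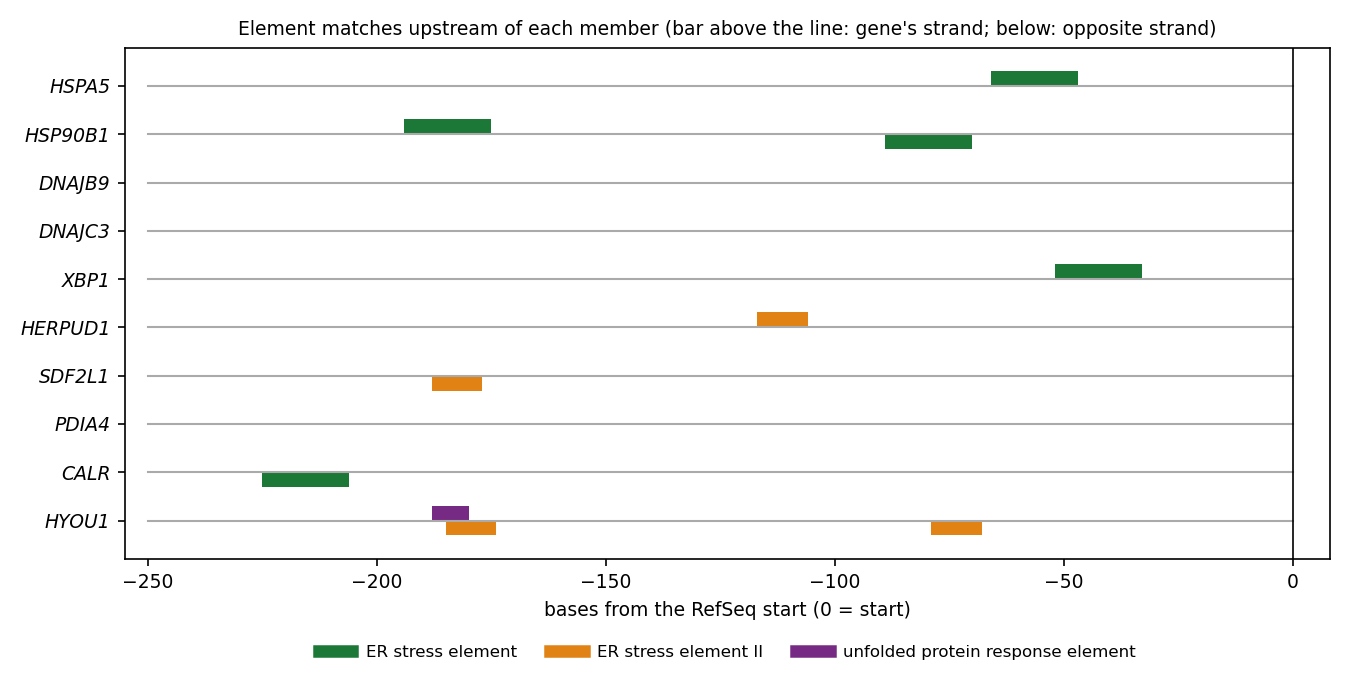
Positions of element matches in the RefSeq window before the start of each of the 10 genes; the x axis is the distance in bases from the annotated start, and a bar above or below the line marks a match on the gene's or the opposite strand. A match to either ER stress element stands before the start of 7 genes, between 225 and 34 bases upstream, and none before DNAJB9, DNAJC3 and PDIA4.

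Per kilobase of exon, the 10 genes covered a wide range of levels in the control line. CALR, the calcium-binding lectin chaperone calreticulin, was the most abundant at 405 ± 24.9 CPM per kilobase in RFP libraries (SD, n = 3). HSP90B1 followed at 225 ± 67.9, HSPA5 at 166 ± 10.2, PDIA4 at 81.3 ± 12.6 and HYOU1 at 43.7 ± 1.98 CPM per kilobase (SD, n = 3 each). XBP1 stood at 23.0 ± 2.58 CPM per kilobase (SD, n = 3). SDF2L1, DNAJC3 and HERPUD1 lay at 10.3 ± 2.31, 9.74 ± 1.83 and 9.69 ± 1.36 CPM per kilobase and were within their spread of each other (SD, n = 3 each). DNAJB9 was lowest at 4.71 ± 1.84 CPM per kilobase (SD, n = 3). By group mean CALR was also the most abundant of the 10 in the channel lines, at 718 ± 43.6 CPM per kilobase in Kv1.5 (SD, n = 2) and 623 ± 56.9 in Kir2.1 libraries (SD, n = 3). In Kv1.5 libraries HSP90B1 and HSPA5, at 623 ± 382 and 543 ± 358 CPM per kilobase (SD, n = 2 each), overlapped with CALR within their spread. They lay below CALR in Kv1.5 replicate 2, at 354 and 290 CPM per kilobase, and above it in replicate 3, at 893 and 796.

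The 10 genes together took 0.589% and 1.09% of all counts in Kv1.5 replicates 2 and 3. They took 0.452% to 0.545% in the Kir2.1 libraries and 0.326% to 0.423% in the RFP libraries. Exact 95% binomial intervals for the Kv1.5 shares were 0.587% to 0.591% and 1.087% to 1.093%, and they cover counting error only. The share was lowest in all 3 RFP libraries and highest in the 2 Kv1.5 libraries, with no overlap between any of the groups. In bulk RNA a change in how many cells express a gene and a change in RNA per cell cannot be told apart.

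In Kv1.5 against RFP cells, 7 of the 10 genes rose, by log2 0.83 to 1.98, and no call was made for DNAJC3, PDIA4 and SDF2L1. Genes were called by edgeR's quasi-likelihood F-test at a Benjamini-Hochberg adjusted p under 0.05 over all 16687 genes tested. By that rule 33.7% of all tested genes were called in this comparison and 18.1% were called higher. Both Kv1.5 libraries stood above all 3 RFP libraries for the same 7 genes, which was so for 27.9% of all tested genes. Of the 7 genes with an exact match to an ER stress element in the window 6 rose, and of the 3 without one DNAJB9 rose. In Kir2.1 against RFP 1 of those 7 and 1 of those 3 rose, and in Kv1.5 against Kir2.1 4 of the 7 and 0 of the 3 did. Inexact or more distant matches were not searched, and the part of the elements in the rises was not tested. In Kv1.5 against RFP the median log2 fold change of the 10 genes was 1.43, beside 0.02 over all tested genes. In Kir2.1 against RFP cells 2 of the 10 rose, PDIA4 and CALR, where 20.5% of all tested genes were called and 12.2% were called higher. All 3 Kir2.1 libraries stood above all 3 RFP libraries for SDF2L1, PDIA4, CALR and HYOU1, which was so for 23.9% of all tested genes, and the median log2 fold change of the 10 genes was 0.38. Between Kv1.5 and Kir2.1 cells XBP1, HERPUD1, HSPA5 and HSP90B1 rose, where 16.8% of all tested genes were called and 8.79% were called higher. Both comparisons with RFP share the RFP libraries, so their values stand side by side and are not independent.

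**Figure D2:**
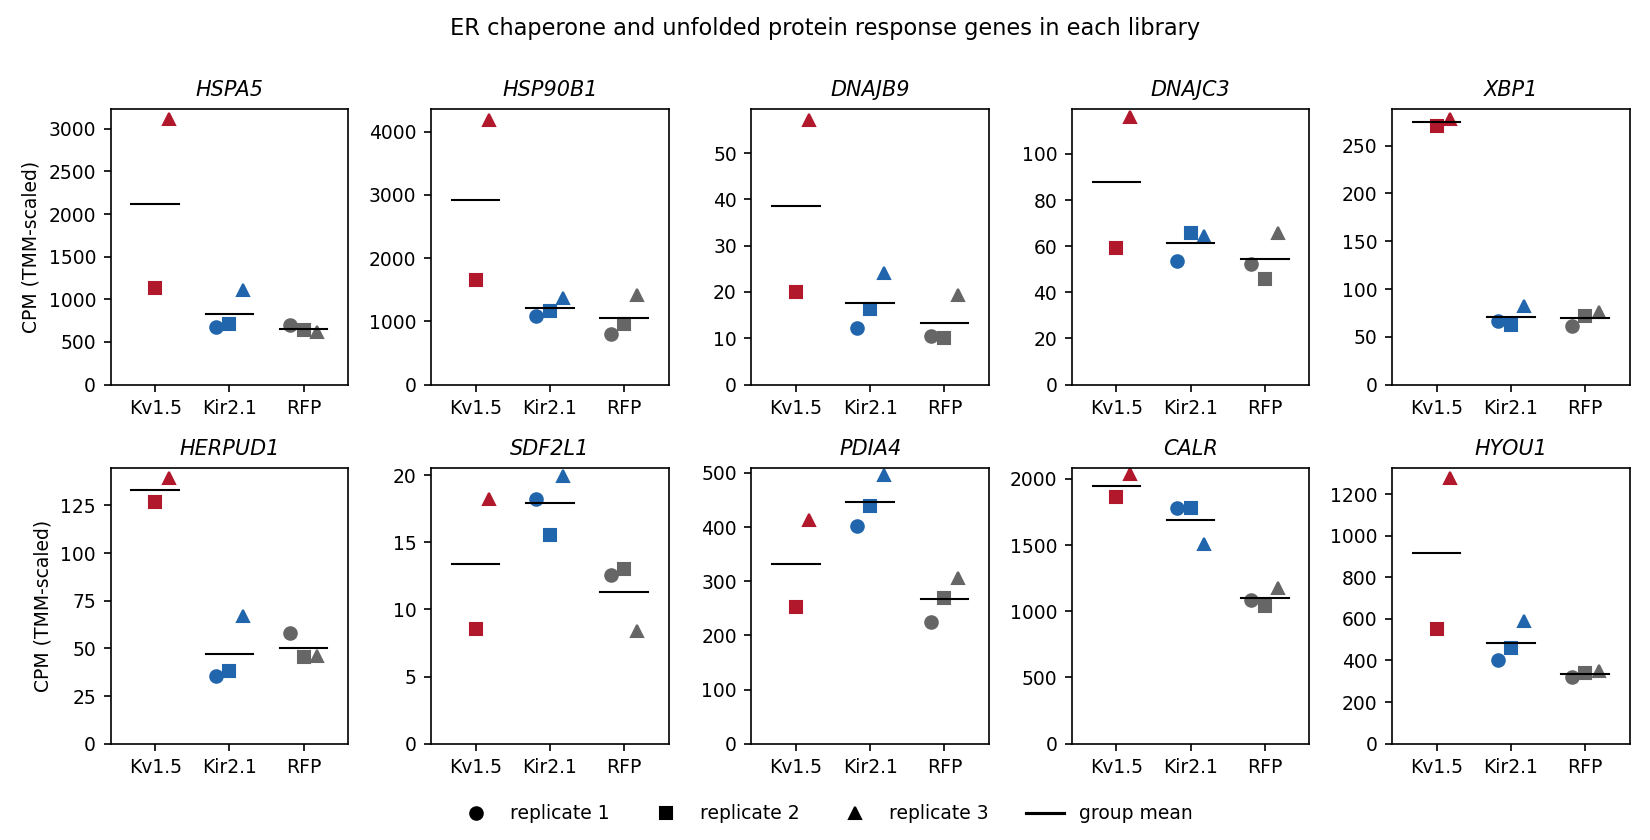
Level of each of the 10 genes in every library, in CPM on TMM-scaled libraries (y axis, from 0 and scaled for each gene), for the Kv1.5, Kir2.1 and RFP groups; points are libraries, shaped by replicate number, and bars are group means. For HSPA5, HSP90B1, DNAJB9 and HYOU1 the 2 Kv1.5 libraries lie far apart, while for XBP1, HERPUD1 and CALR they lie close together and above every RFP library.

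HSPA5 (ENSG00000044574.8, chr9:125234853-125241330 on GRCh38, minus strand) encodes BiP, the ER member of the Hsp70 family. It stood at 1134 and 3110.4 CPM in Kv1.5 replicates 2 and 3, at 680.0, 705 and 1106 CPM in Kir2.1 replicates 1 to 3 and at 695, 638 and 618 CPM in RFP replicates 1 to 3. Both Kv1.5 libraries lay above every other library, by little in replicate 2 and by far in replicate 3, while Kir2.1 and RFP libraries overlapped. The log2 fold change was 1.71 ± 0.35 in Kv1.5 against RFP (SE, adjusted p = 0.00303) and 1.35 ± 0.35 in Kv1.5 against Kir2.1 (SE, adjusted p = 0.0213). Without Kv1.5 replicate 3 these values were 0.80 (adjusted p = 0.0528) and 0.45 (adjusted p = 0.369). The second call was also lost without Kir2.1 replicate 1 (1.23, adjusted p = 0.0865) and without Kir2.1 replicate 2 (1.25, adjusted p = 0.0827).

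BiP works with partners that set its cycle of ATP use and substrate release, and their genes gave unequal values. HYOU1 (ENSG00000149428.19, chr11:119044189-119057202, minus strand), a large Hsp70-related protein that exchanges nucleotide on BiP, stood at 552 and 1278 CPM in Kv1.5 replicates 2 and 3. It stood at 401, 459 and 589 CPM in Kir2.1 and at 321, 338 and 351 CPM in RFP libraries. All Kv1.5 and all Kir2.1 libraries lay above the highest RFP library, and Kir2.1 replicate 3 lay above Kv1.5 replicate 2. HYOU1 rose by log2 1.44 ± 0.30 in Kv1.5 against RFP (SE, adjusted p = 0.00312), and by 0.72 without Kv1.5 replicate 3. It did not pass in Kir2.1 against RFP (0.52 ± 0.27 (SE), adjusted p = 0.192) or in Kv1.5 against Kir2.1 (0.92 ± 0.30 (SE), adjusted p = 0.0520). The first value passed with only those groups in the fit and without Kv1.5 replicate 3 (adjusted p = 0.0485 and 0.0493). The second passed with RLE or upper quartile scaling, with no filter on low counts, with DESeq2 (0.92 to 0.95, adjusted p = 0.00187 to 0.0474) and without Kv1.5 replicate 2 (1.40, adjusted p = 0.00241).

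DNAJB9 (ENSG00000128590.5, chr7:108569568-108574850, plus strand) encodes ERdj4, a J-domain partner of BiP. It stood at 20.05 and 57.2 CPM in Kv1.5 replicates 2 and 3, at 12.3, 16.3 and 24.2 CPM in Kir2.1 and at 10.6, 10.1 and 19.4 CPM in RFP libraries. Kv1.5 replicate 2 lay only just above RFP replicate 3 and below Kir2.1 replicate 3. The rise of log2 1.53 ± 0.43 in Kv1.5 against RFP (SE, adjusted p = 0.0179) was lost without Kv1.5 replicate 3 (0.59, adjusted p = 0.310), without RFP replicate 1 (1.39, adjusted p = 0.0513) and without RFP replicate 2 (1.37, adjusted p = 0.0657). Between Kv1.5 and Kir2.1 the log2 fold change of DNAJB9 was 1.13 ± 0.43 (SE, adjusted p = 0.0940). This value passed with no filter on low counts, with DESeq2 and with a block for replicate number. DNAJB9 overlaps the opposite-strand genes PNPLA8 and THAP5, which had 968 to 3411 and 533 to 1114 counts, and whether the counting used strand is not stated in the sources at hand.

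DNAJC3 (ENSG00000102580.15, chr13:95677139-95794989, plus strand) encodes p58IPK, a co-chaperone of BiP that is also known as an inhibitor of PERK. It stood at 59.2 and 116 CPM in Kv1.5 replicates 2 and 3, at 53.7, 65.9 and 64.3 CPM in Kir2.1 and at 52.1, 45.6 and 65.6 CPM in RFP libraries. Kv1.5 replicate 2 lay within the range of both other groups and replicate 3 above them. Its log2 fold change in Kv1.5 against RFP was 0.69 ± 0.27 (SE, adjusted p = 0.0659), and 1.10 without Kv1.5 replicate 2, which passed. With all libraries it also passed when no filter on low counts was set. SDF2L1 (ENSG00000128228.5, chr22:21642261-21644298, plus strand), a soluble ER protein found in complexes with ERdj3 and BiP, stood at 8.55 and 18.2 CPM in Kv1.5 replicates 2 and 3. It stood at 18.2, 15.5 and 19.95 CPM in Kir2.1 and at 12.6, 13.0 and 8.40 CPM in RFP libraries. The 2 Kv1.5 libraries spanned nearly the whole range of the other groups, and every Kir2.1 library lay above every RFP library. Its log2 fold change was 0.24 ± 0.32 in Kv1.5 against RFP (SE, adjusted p = 0.594) and 0.66 ± 0.29 in Kir2.1 against RFP (SE, adjusted p = 0.122). The value in Kir2.1 against RFP passed with only those groups in the fit.

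HSP90B1 (ENSG00000166598.15, chr12:103930107-103953645, plus strand) encodes GRP94, the Hsp90 protein of the ER. It stood at 1659.9 and 4194 CPM in Kv1.5 replicates 2 and 3, at 1079, 1171 and 1369.6 CPM in Kir2.1 and at 805, 954 and 1417 CPM in RFP libraries. Both Kv1.5 libraries lay above all others, replicate 2 by the smaller margin, and Kir2.1 and RFP libraries overlapped. HSP90B1 rose by log2 1.47 ± 0.34 in Kv1.5 against RFP (SE, adjusted p = 0.00651) and by 1.28 ± 0.34 in Kv1.5 against Kir2.1 (SE, adjusted p = 0.0255). Without Kv1.5 replicate 3 neither passed (0.65, adjusted p = 0.129, and 0.46, adjusted p = 0.388). The second call was also lost without Kir2.1 replicates 1, 2 or 3 in turn (1.204, 1.26 and 1.38, adjusted p = 0.0929, 0.0818 and 0.0560). HSP90B1 overlaps the opposite-strand gene C12orf73, which had 350 to 1227 counts.

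CALR (ENSG00000179218.14, chr19:12938578-12944489, plus strand) stood at 1866 and 2033 CPM in Kv1.5 replicates 2 and 3, at 1777, 1782 and 1512 CPM in Kir2.1 and at 1085, 1039.9 and 1173 CPM in RFP libraries. Every library of either channel group lay above every RFP library, and the 2 Kv1.5 libraries lay close to each other. CALR rose by log2 0.83 ± 0.19 in Kv1.5 against RFP (SE, adjusted p = 0.00638), a call kept with each library left out in turn. It rose by 0.62 ± 0.18 in Kir2.1 against RFP (SE, adjusted p = 0.0260), a call lost without Kir2.1 replicate 1 or 2 (0.59 and 0.58, adjusted p = 0.0620 and 0.111) and without RFP replicate 1 or 2 (0.61 and 0.58, adjusted p = 0.0706 and 0.115). Between Kv1.5 and Kir2.1 its log2 fold change was 0.21, with a 95% interval of -0.22 to 0.63.

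PDIA4 (ENSG00000155660.11, chr7:149003062-149028641, minus strand) encodes ERp72, a protein disulfide isomerase, and had its highest group mean in Kir2.1 libraries, as did SDF2L1. It stood at 252 and 412 CPM in Kv1.5 replicates 2 and 3, at 403, 439 and 496 CPM in Kir2.1 and at 224, 269 and 307 CPM in RFP libraries. All Kir2.1 libraries lay above all RFP libraries, while Kv1.5 replicate 2 lay within the RFP range and replicate 3 within the Kir2.1 range. PDIA4 rose by log2 0.74 ± 0.22 in Kir2.1 against RFP (SE, adjusted p = 0.0292). That call was lost without any 1 of Kir2.1 replicates 1, 2 and 3 (0.81, 0.75 and 0.66, adjusted p = 0.05002, 0.0800 and 0.0989) and without RFP replicate 1 or 2 (0.63 and 0.75, adjusted p = 0.0976 and 0.0945). In Kv1.5 against RFP its log2 fold change was 0.32 ± 0.24 (SE, adjusted p = 0.330), and in Kv1.5 against Kir2.1 it was -0.42 ± 0.24 (SE, adjusted p = 0.249).

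XBP1 (ENSG00000100219.16, chr22:28794555-28800597, minus strand) encodes the transcription factor made after IRE1 splicing. A gene count does not separate its spliced and unspliced mRNA. XBP1 stood at 271 and 278 CPM in Kv1.5 replicates 2 and 3, at 66.8, 62.6 and 81.9 CPM in Kir2.1 and at 61.1, 71.7 and 76.3 CPM in RFP libraries. The Kv1.5 libraries lay close together and far above all others, and the Kir2.1 and RFP libraries overlapped. XBP1 rose by log2 1.98 ± 0.19 in Kv1.5 against RFP (SE, adjusted p = 2.0e-05) and by 1.96 ± 0.19 in Kv1.5 against Kir2.1 (SE, adjusted p = 0.000129). Both calls were kept with each library left out in turn. In Kir2.1 against RFP its log2 fold change was 0.02, with a 95% interval of -0.36 to 0.39.

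HERPUD1 (ENSG00000051108.15, chr16:56932048-56944863, plus strand) encodes Herp, a membrane protein of ER-associated degradation, which sends misfolded proteins to the proteasome. It stood at 127 and 139 CPM in Kv1.5 replicates 2 and 3, at 35.4, 38.3 and 67.1 CPM in Kir2.1 and at 58.0, 45.6 and 46.1 CPM in RFP libraries. As for XBP1, the Kv1.5 libraries lay close together and above all others, and the other groups overlapped. HERPUD1 rose by log2 1.42 ± 0.26 in Kv1.5 against RFP (SE, adjusted p = 0.00159) and by 1.51 ± 0.26 in Kv1.5 against Kir2.1 (SE, adjusted p = 0.00306), also with each library left out in turn.

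**Figure D3:**
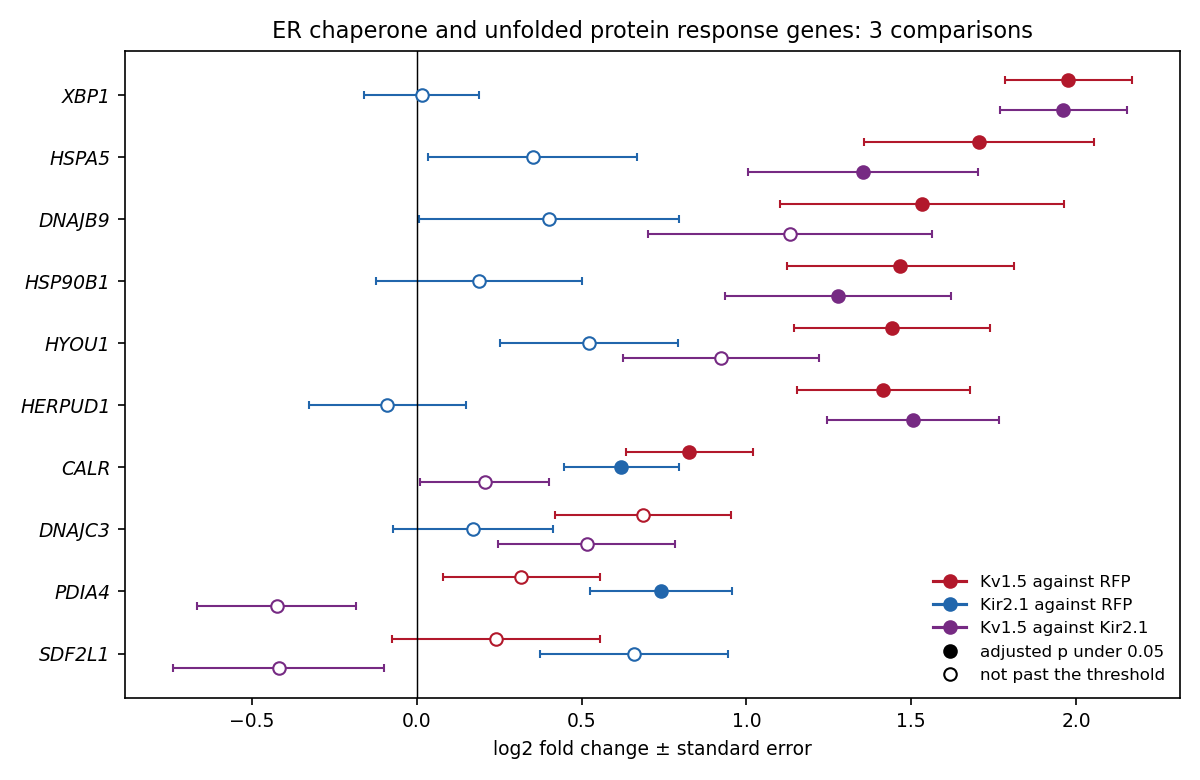
Log2 fold change (x axis) ± standard error of each of the 10 genes for Kv1.5 against RFP, Kir2.1 against RFP and Kv1.5 set against Kir2.1; filled points have an adjusted p under 0.05. XBP1 and HERPUD1 stand near 0 in Kir2.1 against RFP and above 1.4 in both comparisons of Kv1.5, while PDIA4 and SDF2L1 stand below 0 in Kv1.5 against Kir2.1.

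The 2 Kv1.5 libraries differed in most of these genes. With 2 libraries and no replicate of each, the ratios below carry no test, and their 95% intervals cover counting error only. DNAJB9 was 2.85 times as high in replicate 3 as in replicate 2 (2.63 to 3.10), HSPA5 2.74 times (2.71 to 2.77), HSP90B1 2.53 times and HYOU1 2.31 times. SDF2L1 was 2.13 times as high (1.87 to 2.44), DNAJC3 1.96 times and PDIA4 1.64 times. HERPUD1, CALR and XBP1 were nearly level, at 1.10, 1.09 and 1.03 times, and the interval of XBP1 (0.998 to 1.05) held 1. Thus 5 of the 10 genes differed by more than 2-fold, all higher in replicate 3, where 18.6% of all tested genes differed by more than 2-fold and 6.41% were higher in replicate 3 by that much. The median log2 ratio of the 10 genes was 1.03, beside -0.03 over all tested genes. In each of the 3 pairs of Kir2.1 libraries and the 3 pairs of RFP libraries, 0 of the 10 genes differed by more than 2-fold, where 7.29%, 8.79% and 5.39% (Kir2.1) and 7.31%, 14.7% and 7.77% (RFP) of all tested genes did. Some came close to that limit. DNAJB9 stood at 12.3 and 24.2 CPM in Kir2.1 replicates 1 and 3, and at 10.1 and 19.4 CPM in RFP replicates 2 and 3. HERPUD1 stood at 35.4 and 67.1 CPM in Kir2.1 replicates 1 and 3.

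**Figure D4:**
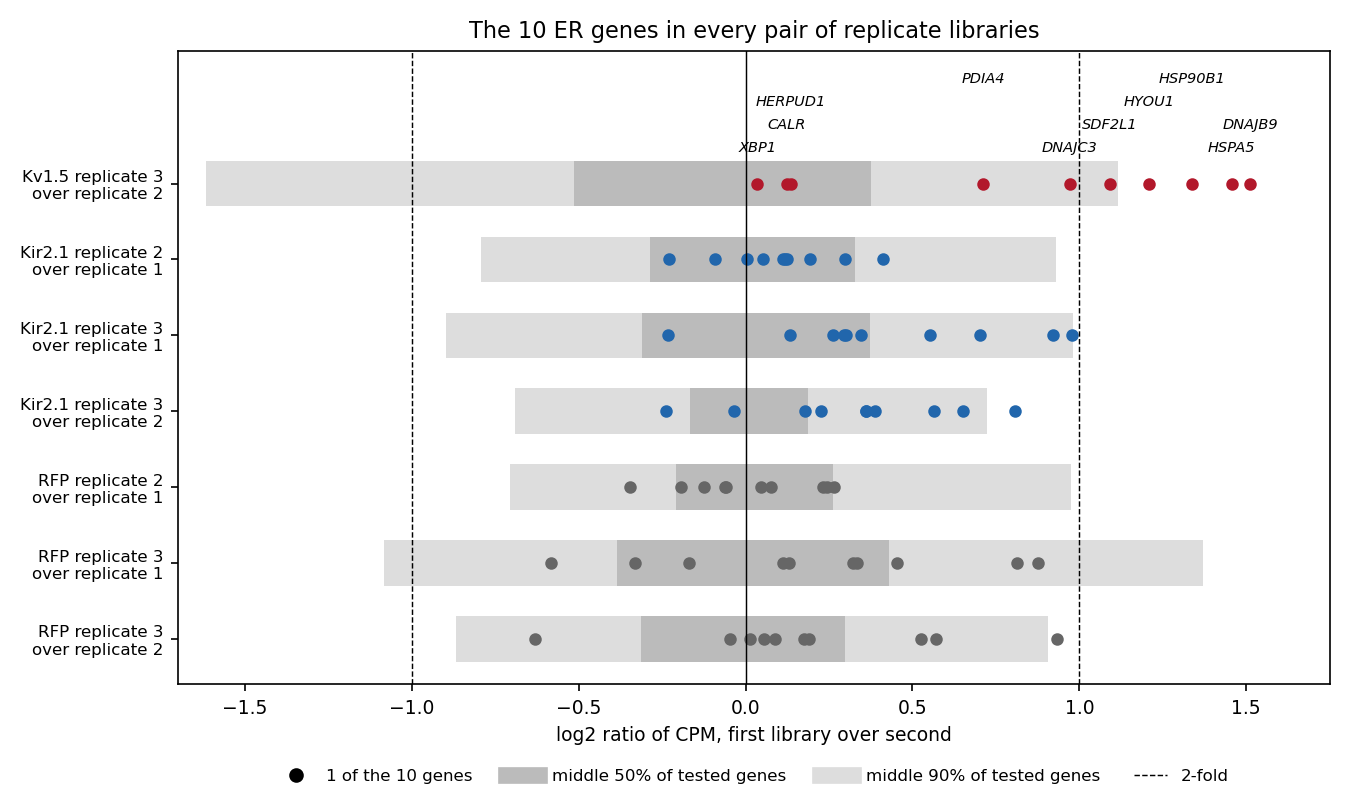
Log2 ratio of CPM (x axis) of the 10 genes between the libraries of every replicate pair, with dark and light bars for the middle 50% and 90% of all tested genes. In the Kv1.5 pair all 10 points lie right of 0 and 5 lie past 2-fold, and in the other 6 pairs no point lies past 2-fold.

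The split of the 10 genes in the Kv1.5 pair ran through the rises against RFP. Without Kv1.5 replicate 3, XBP1, HERPUD1, CALR and HYOU1 were still called higher than RFP, 4 genes in place of 7. Without Kv1.5 replicate 2, 8 were called, DNAJC3 being the addition. In these fits the lone Kv1.5 library is assumed to vary like the other groups. Other genes differed between the same 2 libraries. Of 5 markers of dividing cells 3 were lower in replicate 3 by more than 2-fold, MKI67, TOP2A and KIF20A, with MKI67 at 67.7 CPM in replicate 3 and 319 CPM in replicate 2. Of all tested genes 18.6% differed by more than 2-fold in this pair, with 6.41% being higher in replicate 3 and the rest lower. MCM5 was nearly level, at 32.1 and 33.9 CPM, and UHRF1 was higher in replicate 3, at 27.0 and 15.0 CPM. The sum of the 5 was 231 and 839.6 CPM. That sum was 1678 to 2159 CPM in Kir2.1 and 2519 to 2681 CPM in RFP libraries. All 5 markers fell in Kv1.5 against RFP, where 2596 of the 16687 tested genes were called lower. MKI67 fell there by 2.37 on the log2 scale (adjusted p = 0.00764). The part of cell division in the differences described here was not tested. The share of counts from mitochondrial genes was 2.75% in replicate 3 and 2.82% in replicate 2, so it hardly differed in this pair.

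Related gene lists showed how far the pattern in the Kv1.5 pair reached. Over all tested genes the median log2 ratio of this pair was -0.03, so fewer genes were higher than lower in replicate 3. Past 2-fold, 6.41% of them were higher there. Of 21 tested genes for entry into and traffic from the ER, 21 were higher in replicate 3, with a median ratio of 1.76 and 7 past 2-fold. Among the 7 was the cargo receptor gene LMAN1, at 294 CPM in replicate 3 and 138 CPM in replicate 2. This list summed to 2760 CPM in replicate 2 and 4344 CPM in replicate 3. It summed to 3020 to 3215 CPM in Kir2.1 and 3034 to 3403 CPM in RFP libraries, so replicate 2 was the lowest library and replicate 3 the highest. Of 21 other folding genes, 16 were higher in replicate 3, with a median ratio of 1.70 and 4 past 2-fold, among them the peroxiredoxin PRDX4 at 406 and 186 CPM. The folding list summed to 4939 CPM in replicate 2 and 7816 CPM in replicate 3. It summed to 4705 to 4939 CPM in Kir2.1 and 4150 to 4779 CPM in RFP libraries, so here replicate 3 stood apart. Of 18 genes of ER-associated degradation 12 were higher, with a median ratio of 1.32. Their sum was 2053 CPM in replicate 2 and 2457 CPM in replicate 3, beside 2333 to 2433 CPM in Kir2.1 and 2271 to 2365 CPM in RFP libraries. The cytosolic heat shock list, which also held the mitochondrial chaperonin genes HSPD1 and HSPE1, was higher in replicate 3 for 13 of 13 genes, with a median ratio of 2.00. Within it HSPA8, the constitutive cytosolic Hsp70, stood at 4068 CPM in replicate 3 and 631 CPM in replicate 2. It stood at 2989 to 3781 CPM in Kir2.1 and 3384 to 3618 CPM in RFP libraries, so replicate 2 was the library that stood apart for this gene. The whole cytosolic list, HSPA8 included, summed to 5389 CPM in replicate 2 and 11059.5 CPM in replicate 3. It summed to 8604.5 to 10379 CPM in Kir2.1 and 11081 to 11535 CPM in RFP libraries, so replicate 2 was the lowest library there too. The list of mitochondrial chaperones, which left out HSPD1 and HSPE1, had a median ratio of 1.07, with 5 of 8 higher in replicate 3 and 0 past 2-fold. The outputs of the integrated stress response had a median ratio of 1.01 but went both ways, with 5 of 10 higher in replicate 3 and 1 past 2-fold in each direction. The list of ER stress sensors had a median ratio of 0.831, and ERN1 was lower in replicate 3, at 77.3 CPM against 141 CPM in replicate 2.

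Of the genes of the sensors IRE1, PERK and ATF6, that of IRE1 was called in Kv1.5 cells. ERN1 stood at 141 and 77.3 CPM in Kv1.5 replicates 2 and 3, at 22.5, 29.5 and 23.3 CPM in Kir2.1 and at 16.8, 14.1 and 15.9 CPM in RFP libraries. It rose by log2 2.81 ± 0.26 in Kv1.5 against RFP (SE, adjusted p = 1.2e-05) and by 2.12 ± 0.25 in Kv1.5 against Kir2.1 (SE, adjusted p = 0.000391), with both Kv1.5 libraries above all others. In Kir2.1 against RFP its value was 0.68 ± 0.23 (SE, adjusted p = 0.0540), and every Kir2.1 library lay above every RFP library. That value passed with no filter on low counts, with DESeq2, with only those groups in the fit and without either Kv1.5 library (0.65 to 0.69, adjusted p = 0.0138 to 0.0445). EIF2AK3 and ATF6 did not pass in any of the 3 comparisons, with log2 fold changes of 0.62 and -0.11 in Kv1.5 against RFP, though EIF2AK3 passed there without Kv1.5 replicate 2 or RFP replicate 3. Of the 8 sensor genes, 2 rose and 1 fell in Kv1.5 against RFP, a share near the 33.7% of all tested genes that were called. Besides ERN1, the protease gene MBTPS2, whose product cuts ATF6, rose by log2 1.10 (adjusted p = 0.00530), and CREB3L2, an ATF6-related factor, fell by 1.41 (adjusted p = 0.00208).

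In the wider folding and transport machinery the share called higher in Kv1.5 against RFP was close to the 18.1% of all tested genes. Of 21 other folding genes 4 rose and 1 fell. PRDX4 rose by log2 1.56 (adjusted p = 0.00107), the disulfide isomerase PDIA6 rose by 1.21 (adjusted p = 0.00178) and CNPY2 fell by 1.10 (adjusted p = 0.00306). Of 21 genes for entry and traffic 4 rose, led by the signal peptidase subunit SEC11C at log2 2.09 (adjusted p = 0.000202). Without Kv1.5 replicate 3 the count for entry and traffic was 1 higher and 1 lower, and without replicate 2 it was 8 higher. It was 2 higher and 1 lower without RFP replicate 1, and 2 higher without RFP replicate 2. The folding counts were 3 higher and 3 lower without replicate 3, and 8 higher and 1 lower without replicate 2. Of 18 degradation genes 1 rose, HERPUD2, by log2 1.02 (adjusted p = 0.00233), and 1 fell, FAF2 (-0.65, adjusted p = 0.0181), a call lost without Kv1.5 replicate 3 (-0.50) or RFP replicate 2 (-0.64). Without Kv1.5 replicate 2 the degradation count was 5 higher and 1 lower.

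The outputs of the integrated stress response, which PERK shares with other eIF2α kinases, mostly rose in Kv1.5 cells. Of 10 tested genes 8 rose in Kv1.5 against RFP, where 18.1% of all tested genes were called higher, and 10 rose in Kv1.5 against Kir2.1, where 8.79% were. These counts were 7 and 8 without Kir2.1 replicate 2, and 6 and 9 at an adjusted p under 0.01. Leaving out either Kv1.5 library also lowered both. CHAC1, an enzyme that degrades glutathione, stood at 121 and 91.6 CPM in Kv1.5 replicates 2 and 3, at 10.2, 8.70 and 16.8 CPM in Kir2.1 and at 11.2, 13.1 and 9.55 CPM in RFP libraries. It rose by log2 3.23 ± 0.28 in Kv1.5 against RFP (SE, adjusted p = 8.8e-06), and TRIB3, a pseudokinase that binds ATF4, rose by 3.15 ± 0.29 (SE, adjusted p = 1.2e-05). ATF4 itself stood at 295 and 418 CPM in Kv1.5, at 182, 139 and 203 CPM in Kir2.1 and at 361, 426 and 365 CPM in RFP libraries, so Kv1.5 and RFP overlapped and Kir2.1 was below both. ATF4 fell by 1.14 on the log2 scale in Kir2.1 against RFP (adjusted p = 0.00218). DDIT3, the gene of CHOP, fell by 0.98 there (adjusted p = 0.0132), a call lost without Kir2.1 replicate 2 or RFP replicate 2 (-0.91 in both cases).

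In Kir2.1 against RFP cells, where 20.5% of all tested genes were called, the calls came to 1 of 21 other folding genes, 1 of 21 for entry and traffic, 1 of 18 of degradation, 2 of 8 sensors, 2 of 10 outputs of the integrated stress response, 3 of 13 cytosolic heat shock genes and 1 of 8 mitochondrial genes. KDELR1, a receptor that returns chaperones to the ER, rose by log2 0.78 (adjusted p = 0.00752) and was the 1 gene called of 21 for entry and traffic. SELENOS, a membrane protein of the degradation machinery, fell by 1.25 on the log2 scale (adjusted p = 0.000717) and was the 1 gene called of 18. The sensor genes ATF6B and MBTPS2 rose by log2 0.91 (adjusted p = 0.0311) and 0.76 (adjusted p = 0.0327). Neither passed with glmTreat against a fold of 1.2. ATF6B did not pass without any 1 Kir2.1 or RFP library (0.86 to 0.96), and MBTPS2 did not pass without Kir2.1 replicate 2 or 3 or RFP replicate 1 or 2 (0.65 to 0.74). The sensor count ran from 0 to 3 with 1 library of any group left out. Of 21 other folding genes 1 fell, CNPY2 (-0.71, adjusted p = 0.0237), a call lost without Kir2.1 replicate 2 or 3 or RFP replicate 1 or 2 (-0.62 to -0.73). Without either Kv1.5 library, which here serve only to estimate the spread, 2 folding genes and 2 degradation genes were called higher and 2 of each lower, and 1 gene for entry and traffic was called in each direction.

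Between Kv1.5 and Kir2.1 cells, where 16.8% of all tested genes were called, the calls came to 1 of 21 other folding genes, 2 of 21 for entry and traffic, 2 of 18 of degradation and 2 of 8 sensors. Besides the 10 outputs of the integrated stress response, led by CHAC1 at log2 3.16 (adjusted p = 7.6e-05), SEC11C rose by 1.66 (adjusted p = 0.00267), 1 of 2 genes called higher for entry and traffic. The mitochondrial Hsp70 gene HSPA9 rose by 1.10 (adjusted p = 0.00291), 1 of 3 called higher in its list. Of the folding genes PRDX4 rose by 0.91 (adjusted p = 0.0384), but not when Kv1.5 replicate 3 (0.24), any 1 Kir2.1 library (0.85 to 1.00) or RFP replicate 2 (0.91) was left out. It also missed the threshold with limma voom, with glmTreat and with only those groups in the fit (adjusted p = 0.0655, 0.0689 and 0.0722). Of the degradation genes SELENOS rose by 0.80 (adjusted p = 0.0217), but not without Kv1.5 replicate 3 (0.51) or Kir2.1 replicate 2 (0.70). DERL3, at under 2 CPM in every library, fell by 1.95 (adjusted p = 0.0375), but not without Kv1.5 replicate 2 (-1.38), Kir2.1 replicate 2 or 3 (-1.92 and -1.65) or RFP replicate 2 (-1.95), nor with glmTreat or only those groups in the fit (adjusted p = 0.0503 and 0.0556). Without Kv1.5 replicate 2 the counts were 9 higher for folding and 7 higher for entry and traffic, and without replicate 3 they were 0 and 1. With 1 library of the other groups left out, folding ran from 0 to 2, entry and traffic from 1 to 2, degradation from 0 to 2 and the mitochondrial list from 1 to 3. Of 13 cytosolic heat shock genes 0 were called by edgeR, with 3 at an unadjusted p under 0.05, 0 by limma voom and 2 by DESeq2. Leaving out Kv1.5 replicate 2 gave 5 higher there and leaving out replicate 3 gave 5 lower.

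Chaperones of the cytosol were called in both directions in both channel lines. Of the 13 genes of the cytosolic heat shock list 2 rose and 3 fell in Kv1.5 against RFP, a share near the 33.7% of all tested genes called. HSPD1 and HSPE1 of that list, whose products work in mitochondria, were not called there. Of the same 13 genes 2 rose and 1 fell in Kir2.1 against RFP, beside 20.5% of all tested genes called, and that count ran from 0 to 4 with 1 library of any group left out. HSP90AA1, the inducible cytosolic Hsp90, stood at 1053 and 1785 CPM in Kv1.5, at 2040.0, 1825 and 2066 CPM in Kir2.1 and at 3262, 3777 and 3522 CPM in RFP libraries. It fell by 1.31 on the log2 scale in Kv1.5 against RFP (adjusted p = 0.00199), with no overlap between the groups. HSP90AA1 fell by 0.83 in Kir2.1 against RFP (adjusted p = 0.0174), a call lost without any 1 Kir2.1 library or RFP replicate 2 (-0.78 to -0.86). HSPA1A was called higher in Kv1.5 against RFP (log2 2.91, adjusted p = 0.0129), but not without Kv1.5 replicate 3 (0.34), with limma voom (2.06, adjusted p = 0.0585) or with no filter on low counts (2.90, adjusted p = 0.114). It was called at 2.37 in Kir2.1 against RFP (adjusted p = 0.0344), but not without any 1 Kir2.1 or RFP library (2.27 to 2.45) or with no filter (adjusted p = 0.204). HSPB1, a small heat shock protein, was called at 0.81 there (adjusted p = 0.0452), but not with RLE, the filter of 1 CPM, limma voom or glmTreat (adjusted p = 0.05003 to 0.0833), nor without Kir2.1 replicate 1 or 2 or RFP replicate 2 or 3 (0.53 to 0.93). HSPA1A stood at 53.3 CPM in Kv1.5 replicate 3 and 4.90 CPM in Kv1.5 replicate 2, and has a near-identical copy, HSPA1B, between which the counting may have split reads. Without Kv1.5 replicate 3 the list's count was 8 lower, and without replicate 2 it was 4 higher and 1 lower. Of 8 mitochondrial chaperones and proteases 4 rose in Kv1.5 against RFP, among them AFG3L2 by log2 1.21 (adjusted p = 0.000341). That count was 2 higher without Kv1.5 replicate 3 and 1 higher without RFP replicate 2.

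Across the 8 libraries the 10 genes were not a single block. Pearson's r between their log2 CPM ran from -0.15 to 0.97 over 45 gene pairs, with a median of 0.63. These are descriptions over 8 libraries that share groups and library effects, so no p is given. Among the 10691 genes that averaged 5 CPM or more, HYOU1 ranked 2 in likeness to HSPA5 (r = 0.97). HSP90B1 ranked 68, DNAJB9 102, DNAJC3 273, HERPUD1 346 and XBP1 471. CALR, SDF2L1 and PDIA4 ranked 1791, 3668 and 3756. Several of these values rested on Kv1.5 replicate 3. Without it r was 0.34 for DNAJC3 in place of 0.87, 0.62 for HSP90B1 in place of 0.92, 0.07 for SDF2L1 in place of 0.34 and 0.19 for PDIA4 in place of 0.33. It was 0.89 for HYOU1, 0.82 for HERPUD1, 0.72 for XBP1, 0.68 for DNAJB9 and 0.53 for CALR. The 6 other genes most like HSPA5 were MRS2, DNAH14, DKK1, MPLKIP, CAPRIN2 and LARP1B, with r from 0.97 to 0.99, and from 0.86 to 0.94 without Kv1.5 replicate 3. DKK1, a secreted Wnt inhibitor, stood at 487 and 1177 CPM in Kv1.5 replicates 2 and 3, at 237, 219.6 and 295 CPM in Kir2.1 and at 249, 219.98 and 173 CPM in RFP libraries. By Spearman's rho none of these 6 was among the 6 most alike, and Kv1.5 replicate 3 was the highest library for all 6.

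The authors' deposited table for Kv1.5 against RFP listed 5 of the 10 genes, XBP1, HSPA5, HSP90B1, HYOU1 and HERPUD1, with log2 fold changes within 0.0031 of the values above. The authors' deposited table for Kir2.1 against RFP listed 0 of the 10. CALR and DNAJB9 in the first comparison and PDIA4 and CALR in the second were called here but not listed there. The authors' tables thus did not list every gene called by the rule used here, and absence from them is not a result of no change.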

How the data were processed

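MDA-MB-231 libraries were compared by gene counts. The authors' deposited count table holds raw counts for 60715 Ensembl genes in 8 libraries; Kv1.5 replicate 1 was not analysed here. Per the submitters' processing notes, FastQC, Trimmomatic, STAR and edgeR were used with GRCh38; no source at hand states the counting tool or its strand setting. The authors' deposited comparison tables hold log2 fold changes, log2 CPM and p-values. Per the labels' protocols, RNA came from biological replicates of each line, and separate transductions are not stated, so p-values measure the spread between these cultures.

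Counts were fitted in edgeR 4.0.16 (R 4.3.3): filterByExpr by group left 16687 genes, all 10 members among them. TMM factors, robust dispersions and a robust quasi-likelihood fit of all 8 libraries on group followed, with 5 residual degrees of freedom. Standard errors were derived from the F statistic, and CPM refers to TMM-scaled libraries. The design had allowed for 9 libraries. Gene positions and exon lengths came from GENCODE 29, promoter windows from RefSeq (GRCh38.p14). Likeness was Pearson's r of log2(CPM + 0.5). The test was checked on simulated counts. Each gene varied on its own there, so shifts shared by many genes of a library, as between the Kv1.5 libraries, were not covered.

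Members and lists were chosen with earlier results of these data known. Named genes were the members, ERN1, EIF2AK3, ATF6, MKI67, KCNJ2, KCNA5, up to 3 called genes per list and comparison with the largest change, and the 6 genes most like HSPA5. Some genes named by this rule are not printed. HSPA8, HSPA1B, HSPD1, HSPE1, CD14, LYZ, COL1A1, COL1A2, LUM, PDGFRB, MCM5, UHRF1 and the overlapping genes were named after their values were seen. As alternatives, library scaling was set to RLE or upper quartile, the filter was dropped or set at 1 CPM in 2 libraries, and DESeq2 1.42.0 or limma voom (3.58.1) replaced the test. Other fits used an adjusted p under 0.01, glmTreat with a fold of 1.2, just the groups at hand, a block for replicate number, or 1 library fewer. The alternatives for genes other than members were added after the data were seen.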

Additional observations from a re-analysis of the deposited data

How the results depend on the processing

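For the 10 ER genes, the count called in Kv1.5 against RFP ran from 4 to 8 with 1 library left out and from 6 to 8 under the other settings. In Kir2.1 against RFP it was 2, but 0 at an adjusted p under 0.01, 0 with glmTreat, 4 with only the 2 groups compared, and 0 to 4 with 1 library left out. Between Kv1.5 and Kir2.1 it was 4, but 5 with RLE or upper quartile scaling, 6 with no filter or with DESeq2, 2 at an adjusted p under 0.01 and 2 to 7 with 1 library left out. At a 3-fold limit 0 of the 10 genes differed between the Kv1.5 libraries. Over all genes, an adjusted p under 0.01 left 1681 calls in Kir2.1 against RFP, 3123 in Kv1.5 against RFP and 970 between Kv1.5 and Kir2.1. With 1 library left out these counts ran from 1975 to 4519, from 3912 to 5536 and from 1384 to 3861.

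Signs were reversed in values of the 10 genes that did not pass the threshold. In Kir2.1 against RFP, XBP1 stood at a log2 fold change of -0.0149 with RLE and -0.0148 with DESeq2, and ran from -0.101 to 0.0925 with 1 library left out, while HERPUD1 ran from -0.432 to 0.0801. In Kv1.5 against RFP, SDF2L1 ran from -0.407 to 0.690 and PDIA4 from -0.0817 to 0.635. Between Kv1.5 and Kir2.1, DNAJC3 ran from -0.0539 to 0.922 and SDF2L1 from -1.07 to 0.0275. Leaving out Kv1.5 replicate 3 gave the lowest value of these 4. The cause was not tested.

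Whether replicate numbers pair the samples could not be decided. Deviations from group means correlated at -0.20 to 0.33 for same-numbered and at -0.37 to 0.14 for differently numbered libraries. Deviations cancel within each group, so these correlations are not independent. With the replicate block, 7, 2 and 5 of the 10 genes and 5565, 3707 and 2729 of all genes were called in Kv1.5 against RFP, in Kir2.1 against RFP and between Kv1.5 and Kir2.1. With it HSPA1A missed the threshold in Kv1.5 against RFP and in Kir2.1 against RFP (adjusted p = 0.0668 and 0.0569), as did PRDX4 between Kv1.5 and Kir2.1 (0.0570), while ERN1 passed in Kir2.1 against RFP (0.04999).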
